A study of Rattus norvegicus with 8 samples.

Results

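Metabotropic glutamate receptors were examined in the hippocampus of rats without adrenal glands (adrenalectomized, ADX), after a vehicle or a corticosterone (CORT) infusion. The receptors were taken by gene symbol from a list of 6 genes, Grm2, Grm3, Grm4, Grm5, Grm7 and Grm8. These 6 genes are among 13272 symbols in the table of the experiment, and they hold 9 of its 16266 transcript rows. Whole hippocampi of 8 rats, 4 per group and labelled as aged 3 to 4 months, were used for RNAseq. The rats are labelled Sprague-Dawley, whereas the methods of the study name male Lister Hooded rats and give a younger age, in weeks. The vehicle was 0.45% saline by the treatment label, while the titles call the vehicle samples untreated, and the CORT group received corticosterone-2-hydroxypropyl-β-cyclodextrin at 0.75 mg/mL; both were infused for 30 min from ZT 2 (zeitgeber time, hours after the lights came on), and tissue was taken 2 h after the infusion began. All rats of both groups were adrenalectomized and had received corticosterone in their drinking fluid after surgery, until it was replaced by saline before the infusion. The comparison asks which transcripts in the hippocampus differ when the hormone is given back at a time of day when its circulating level is normally low.

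Levels are given as FPKM, a count of fragments divided by transcript length and by the size of the library, so that they can be compared between transcripts of unequal length. For each transcript the table gives 1 FPKM value per group and no value for a single rat. No error can therefore be attached to a level or a difference here, no test between the groups was run, and the depth behind each value is unknown. A difference is described by the log2 ratio of the CORT value over the vehicle value, and it was counted when it reached 1.2-fold in either direction. Where a gene has more than 1 row, the authors' software divided reads from shared exons between transcripts, so those rows are not independent of each other.

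Metabotropic glutamate receptors are G protein-coupled receptors that adjust synaptic transmission over a slower time course than the glutamate-gated ion channels. Group I receptors couple mainly to Gq and phospholipase C, lie largely at the margin of the postsynaptic density and take part in hippocampal synaptic plasticity. Group II and group III receptors couple to Gi/o proteins, lower cAMP and, on nerve terminals, reduce transmitter release. Among the chosen genes Grm5 belongs to group I, Grm2 and Grm3 to group II, and Grm4, Grm7 and Grm8 to group III.

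The base sequences ahead of a start site are shown for the members with a promoter window in the RefSeq tables for the GRCr8 rat assembly, because corticosterone acts through receptors that bind DNA. A window was found for 3 of the 6 members, Grm5, Grm7 and Grm8. Each sequence holds the 250 bases before a RefSeq start site, written 5′ to 3′ on the strand of the gene. Capitals mark the core AGAACA, or its reverse complement TGTTCT, which is a single arm of the glucocorticoid response element. The windows are chr1:150733503-150733752 on the plus strand for Grm5, chr4:145286476-145286725 on the plus strand for Grm7 and chr4:57687507-57687756 on the minus strand for Grm8.
Grm5: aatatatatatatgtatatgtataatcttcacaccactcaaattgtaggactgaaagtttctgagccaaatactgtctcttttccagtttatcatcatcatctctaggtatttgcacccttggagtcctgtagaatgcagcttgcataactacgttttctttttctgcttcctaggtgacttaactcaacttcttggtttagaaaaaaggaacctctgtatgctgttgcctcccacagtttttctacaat
Grm7: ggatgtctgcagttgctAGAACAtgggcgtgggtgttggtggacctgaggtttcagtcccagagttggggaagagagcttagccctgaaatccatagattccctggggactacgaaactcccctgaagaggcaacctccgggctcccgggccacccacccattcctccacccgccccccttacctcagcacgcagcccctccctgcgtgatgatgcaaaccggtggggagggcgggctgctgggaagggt
Grm8: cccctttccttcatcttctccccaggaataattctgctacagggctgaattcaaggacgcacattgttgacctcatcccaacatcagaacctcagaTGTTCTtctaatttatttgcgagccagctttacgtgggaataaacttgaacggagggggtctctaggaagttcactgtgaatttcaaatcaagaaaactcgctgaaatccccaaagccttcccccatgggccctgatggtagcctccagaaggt

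The core was present in the windows of Grm7 and Grm8 and not in that of Grm5. In Grm7 it began 233 bases before the start site, and in Grm8 its reverse complement began 154 bases before it. The core occurs on either strand in 17.5% of all 33469 promoter windows of this length. The full palindrome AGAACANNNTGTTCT, which contains the core on both strands, was in 0 of the 3 windows and in 4 of all windows. The E-box CACGTG, bound by clock proteins, and the cAMP response element TGACGTCA were each in 0 of the 3 windows, against 5.59% and 1.59% of all windows. The shorter TGACG, which lies within the cAMP response element, was in 0 of 3 as well, against 18.2% of all. The GC content of the windows was 36.4% for Grm5, 62% for Grm7 and 47.2% for Grm8, beside a median of 51.2% over all windows. The start sites used by these windows lie at a distance from the start of the RefSeq gene, of 11042 bases for Grm5, 12 for Grm7 and 9445 for Grm8. The windows of Grm5 and Grm8 are therefore not the bases just ahead of the start of the gene. Which start site was used in these hippocampi was not measured.

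With vehicle, the summed FPKM of a gene's rows placed Grm3 first, at 18.4 FPKM, followed by Grm5 at 17.0 FPKM. Grm7, at 12.1 FPKM, and Grm2, at 10.6 FPKM, came next. Grm4 at 3.34 FPKM and Grm8 at 1.03 FPKM were the lowest members. The 4 higher genes thus lay within a narrow range, while Grm2 was 3.17 times the level of Grm4, and Grm4 was 3.26 times that of Grm8. Among all gene symbols, the mean level of the groups was above that of 61.9% of symbols for Grm5 and 61.8% for Grm3. It was above that of 19.9% for Grm4 and 4.45% for Grm8. With CORT the first and the second place changed hands, with Grm5 at 20.6 FPKM and Grm3 at 19.1 FPKM. The other 4 genes kept their places. Grm3 and Grm5 differed by 1.08-fold with vehicle, and whether that or any other step between neighbours exceeds the spread between rats cannot be told from group values.

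**Figure D1:**
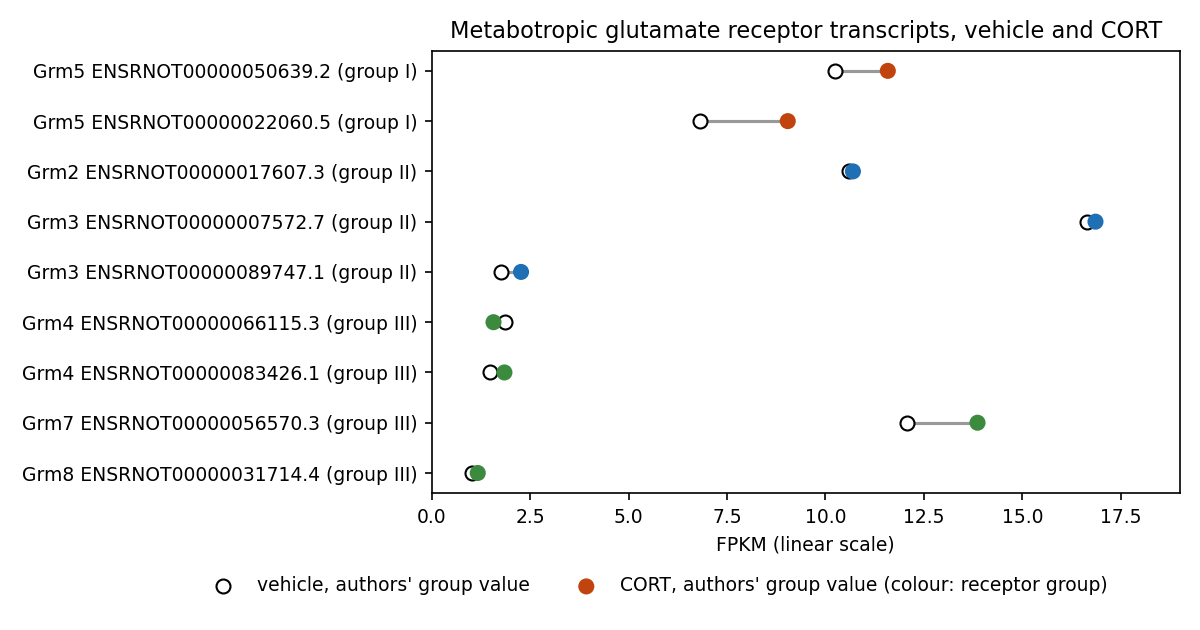
FPKM (x axis, linear scale) of the 9 transcript rows of the 6 receptor genes in the vehicle group (open circles) and in the CORT group (filled circles, coloured by receptor group); each circle is the authors' value for 4 rats, without an error. The filled circle lies to the right of the open circle in 8 rows, with the widest gap for the lower Grm5 row, from 6.80 to 9.04 FPKM, and to the left only for the upper Grm4 row.

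Of the 9 rows, 8 were higher in the CORT group and 1 was lower, beside 55.0% of all transcript rows higher in the CORT group. Their log2 ratios ran from -0.25 to 0.41 with a median of 0.19, whereas the median over all rows was 0.02 and the interquartile range -0.11 to 0.14. At least 1.2-fold higher were 3 of the 9 rows, 1 each of Grm5, Grm3 and Grm4, beside 12.3% of all transcript rows. At least 1.2-fold lower were 0 of the 9, beside 13.3% of all rows. At 1.5-fold the members gave 0 higher rows and 0 lower rows, beside 4.21% of all rows higher and 4.91% lower. A Grm4 row at 1.24-fold just passed the 1.2-fold limit, and the other Grm4 row, at 0.843 of its vehicle value, just failed to reach it. With the rows of a gene summed, only Grm5 among the 6 genes reached 1.2-fold, at 1.21-fold.

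Grm5 encodes mGlu5, the postsynaptic group I receptor that couples to Gq and is tethered by Homer proteins. Its locus, given like those of the other receptor genes in rn6 coordinates, is chr1:151439409-151783392, and it had 2 rows. ENSRNOT00000050639.2 stood at 10.2 FPKM in the vehicle and 11.6 FPKM in the CORT group, a log2 ratio of 0.18. ENSRNOT00000022060.5 stood at 6.80 FPKM in the vehicle and 9.04 FPKM in the CORT group, a log2 ratio of 0.41, the highest of the 9 rows. Both rows were thus higher in the CORT group, and the gap between them was narrower there. The upper row was 1.5 times the lower row with vehicle and 1.28 times with CORT. Around the level of the lower row, among 5664 transcript rows within 2-fold of its mean FPKM, 10.7% were at least 1.2-fold higher in the CORT group and 10.1% were at least 1.2-fold lower. The summed level of Grm5 went from 17.0 to 20.6 FPKM, a log2 ratio of 0.28.

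Summed by group, the group II receptors differed least, and so did their upper rows. Grm2 encodes mGlu2, a receptor of glutamatergic terminals that in the hippocampus is well known from the mossy fibres of dentate granule cells. Its single row, ENSRNOT00000017607.3 at chr8:115344999-115358046, stood at 10.6 FPKM in the vehicle and 10.7 FPKM in the CORT group, a log2 ratio of 0.01. Grm3 encodes mGlu3, which is found on neurons and on astrocytes. Its upper row, ENSRNOT00000007572.7 at chr4:21317695-21560490, was the highest of all 9 rows and stood at 16.6 FPKM in the vehicle and 16.9 FPKM in the CORT group, a log2 ratio of 0.02. These log2 ratios of Grm2 and Grm3 lay within 0.01 of the median over all rows, which was 0.02.

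The lower Grm3 row, ENSRNOT00000089747.1 at the same locus, stood at 1.75 FPKM in the vehicle and 2.27 FPKM in the CORT group. Its log2 ratio of 0.37 rests on a row that held little of the gene's signal, since the upper row made up 90.5% of the summed FPKM with vehicle and 88.1% with CORT. With both rows summed, Grm3 stood at 18.4 and 19.1 FPKM, a log2 ratio of 0.06. At such low levels large ratios were common in the table. Among 3954 rows within 2-fold of the level of this row, 21.2% were at least 1.2-fold higher in the CORT group and 25.7% at least 1.2-fold lower.

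The group III genes were divided by level, with Grm7 well above Grm4 and Grm8. Grm7 encodes mGlu7, a receptor of low glutamate affinity that sits in the active zone of nerve terminals. Its row, ENSRNOT00000056570.3 at chr4:142780987-143367578, stood at 12.1 FPKM in the vehicle and 13.9 FPKM in the CORT group, a log2 ratio of 0.20. Grm8 encodes mGlu8, a presynaptic receptor known from perforant path terminals. Its row, ENSRNOT00000031714.4 at chr4:54474136-55407922, was the lowest of the 9 and stood at 1.03 FPKM in the vehicle and 1.17 FPKM in the CORT group, a log2 ratio of 0.19. As deposited, the ratios of Grm7 and Grm8 were thus close to each other at levels that differed by more than 10-fold. With 1 FPKM added to both values they were 0.18 for Grm7 and 0.10 for Grm8. Among 2844 rows within 2-fold of the level of Grm8, 26.2% were at least 1.2-fold higher in the CORT group and 33.2% at least 1.2-fold lower.

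Grm4 encodes mGlu4, a presynaptic group III receptor that is best known from the cerebellum. Its 2 rows, both at chr20:6516264-6864387, went in opposite directions. ENSRNOT00000066115.3 stood at 1.86 FPKM in the vehicle and 1.57 FPKM in the CORT group, a log2 ratio of -0.25. ENSRNOT00000083426.1 stood at 1.48 FPKM in the vehicle and 1.85 FPKM in the CORT group, a log2 ratio of 0.32. The row that was higher with vehicle was therefore the lower of the pair with CORT, at 0.850 of the other. Summed over both rows, Grm4 was nearly level, at 3.34 and 3.41 FPKM, a log2 ratio of 0.03. Of 3777 rows within 2-fold of the level of ENSRNOT00000083426.1, 22.5% were at least 1.2-fold higher in the CORT group and 27.9% at least 1.2-fold lower.

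**Figure D2:**
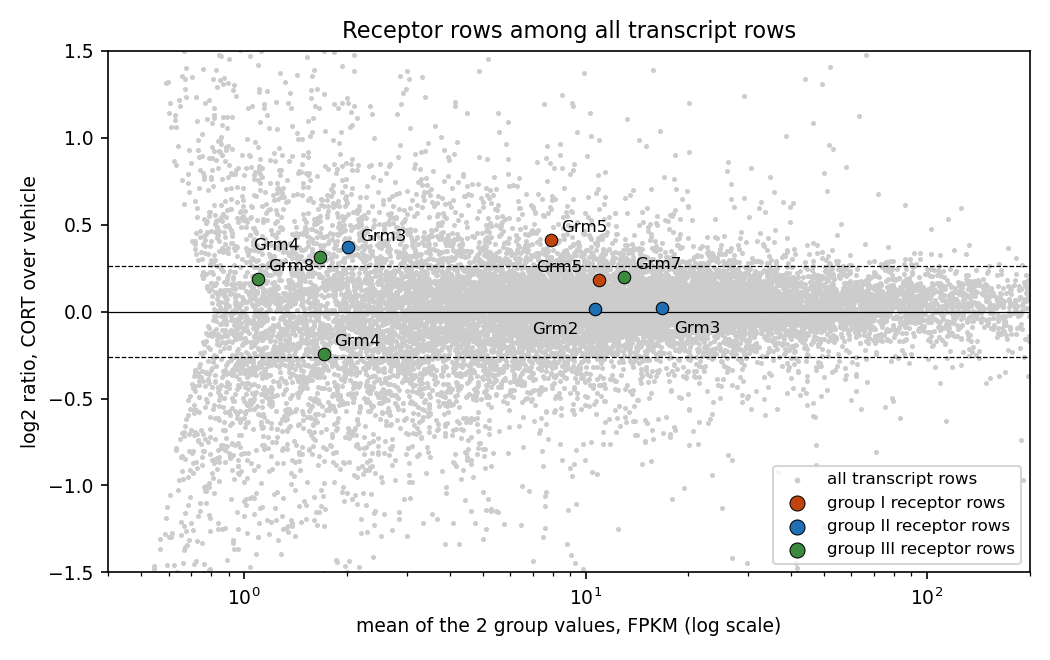
Log2 ratio of CORT over vehicle (y axis) against the mean of the 2 group values in FPKM (x axis, log scale) for all transcript rows (grey; rows beyond the axes are not drawn) and for the 9 receptor rows, coloured by receptor group; dashed lines mark 1.2-fold. The grey points spread more widely at low FPKM, where the rows of Grm4 and Grm8 and the lower Grm3 row lie, and the lower Grm5 row, at a log2 ratio of 0.41, is the only receptor row above 3 FPKM that lies beyond the dashed lines.

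Summed by receptor group, the CORT value was 1.21 times the vehicle value for group I, from 17.0 to 20.6 FPKM. It was 1.03 times for group II, from 29.0 to 29.8 FPKM, and 1.12 times for group III, from 16.5 to 18.4 FPKM. Group II thus made up 46.4% of the summed FPKM of the 6 genes with vehicle and 43.3% with CORT. Group I made up 27.3% and 29.9%, and group III 26.3% and 26.8%. The summed FPKM of all 6 genes was 62.5 with vehicle and 68.9 with CORT. The summed FPKM of the table was higher with CORT too, a sum that is weighted toward its most abundant rows. Taking for each of its 13272 symbols the 1 row of the highest mean FPKM, the CORT total was 576928 FPKM, against a vehicle total of 541355. Counted that way, the 6 receptor genes reached 55.7 FPKM after CORT, against 52.4 after vehicle. The receptor sums given here were not adjusted for the higher sum of the table. Over those 13272 symbols the median log2 ratio was only 0.02, with 7195 symbols higher in the CORT group and 6076 lower. Grm6, a group III gene known from the retina that was not among the 6, had 1 row, from 1.19 to 1.54 FPKM, with a log2 ratio of 0.38.

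The genes that work with these receptors were taken from 5 lists, with each symbol represented by its row of the highest mean FPKM. In this form the 6 receptor genes had a median log2 ratio of 0.10, and 0 of them reached 1.2-fold in either direction. Over all 13272 symbols the median was 0.02, with 8.34% at least 1.2-fold higher in the CORT group and 12% at least 1.2-fold lower. The 5 lists had medians between 0.07 and 0.16. The genes named below as highest or lowest of a list include low rows, those of Trpc5, Plcb4, Grk4 and Slc17a8. Within 2-fold of the lower Grm3 row, at a mean of 2.01 FPKM, 21.2% of rows were at least 1.2-fold higher in the CORT group and 25.7% lower.

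Of the 12 genes of Gq signalling, which carry group I signals to phospholipase C, intracellular calcium and TRPC channels, 2 were at least 1.2-fold higher and 1 was at least 1.2-fold lower in the CORT group, with a median log2 ratio of 0.12. Trpc5, a cation channel opened downstream of Gq, had the highest ratio, from 2.68 to 4.37 FPKM (log2 ratio 0.71). Plcb4, a phospholipase C, had the lowest, from 2.67 to 2.16 FPKM (log2 ratio -0.31). Of the 18 genes of Gi/o and cAMP signalling, which serve groups II and III, 1 was at least 1.2-fold higher and 0 lower, with a median of 0.13. Adcy5, an adenylyl cyclase inhibited by Gi, was the highest, from 20.5 to 24.9 FPKM (log2 ratio 0.28), and Gnai3, a Gi α-subunit, the lowest, from 22.4 to 20.8 FPKM (log2 ratio -0.10).

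Of 16 scaffolds and binding partners, 14 were found by their symbol. Of these 14, 1 was at least 1.2-fold higher and 0 lower, with a median of 0.10. Nherf2 is listed under its older symbol Slc9a3r2, at 25.9 and 25.6 FPKM (log2 ratio -0.02), and with it the median over 15 genes was 0.10 as well. Elfn2, a postsynaptic adhesion protein that binds group III receptors across the synapse, was the highest, from 21.7 to 27.8 FPKM (log2 ratio 0.36). Grip1, a PDZ scaffold, was the lowest, from 4.74 to 4.36 FPKM (log2 ratio -0.12). Another Grip1 row, at a mean of 1.4 FPKM, went the other way, with a log2 ratio of 0.32. The 9 desensitization genes, each of which had a row, encode kinases, arrestins and RGS proteins that end receptor signalling, and had 1 higher and 1 lower, with a median of 0.16. Grk6 went from 11.3 to 13.8 FPKM (log2 ratio 0.28) and Grk4 from 1.92 to 1.55 FPKM (log2 ratio -0.31).

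Of the 11 genes of glutamate release and clearance, 1 was higher and 1 lower by at least 1.2-fold, with a median of 0.07. The highest and the lowest ratio both belonged to vesicular glutamate transporters. Slc17a8 stood at 1.47 FPKM in the vehicle and 2.25 FPKM in the CORT group (log2 ratio 0.61), and Slc17a6, which is also on the list of thalamic and habenular markers, at 9.0 and 5.56 FPKM (log2 ratio -0.70). Over the 5 lists, 55 of 64 entries (85.9%) lay within 1.2-fold, beside 79.7% of all symbols. These 2 shares are not matched for level. Within 2-fold of the level of the upper Grm3 row, 7.66% of rows were at least 1.2-fold higher in the CORT group and 5.35% lower. Within 2-fold of the level of Grm8 the shares were 26.2% and 33.2%.

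**Figure D3:**
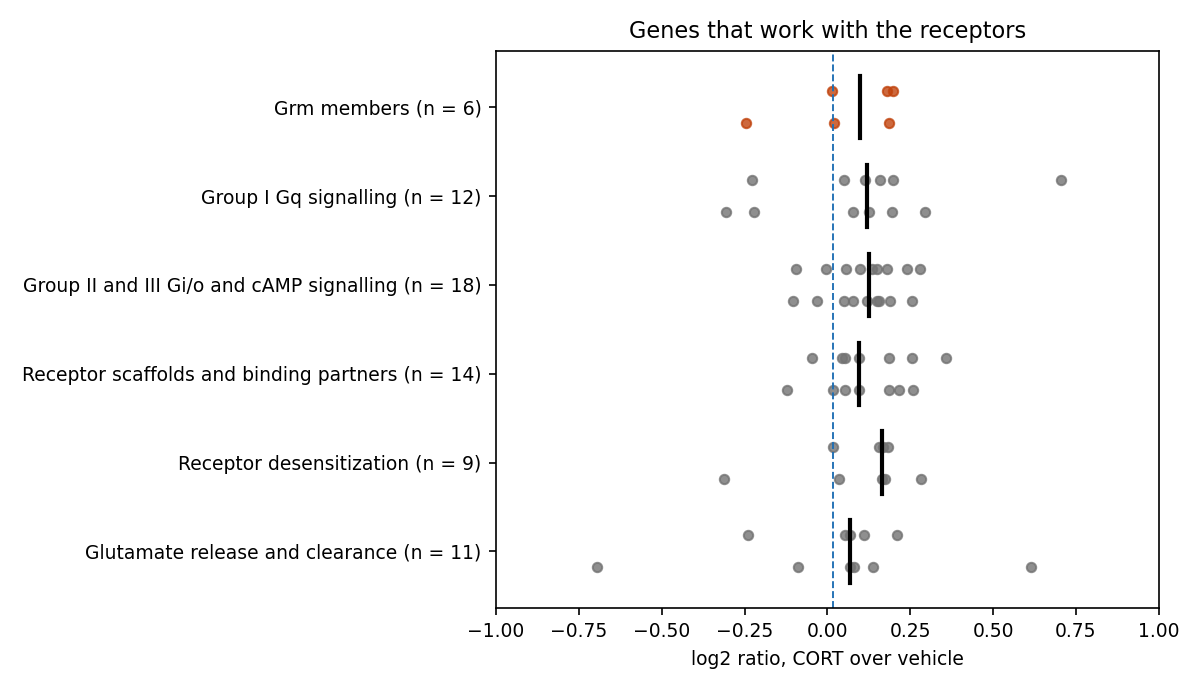
Log2 ratio of CORT over vehicle (x axis) for the 6 receptor genes (red) and for each gene of 5 lists of signalling, binding and glutamate-handling genes (grey), with 1 row per symbol throughout; black bars are medians and the dashed line is the median of all 13272 symbols. The black bars of the 5 lists lie between 0.07 and 0.16 and that of the receptor genes, at 0.10, lies within that range; all are to the right of the dashed line at 0.02.

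Markers of cell types were compared because whole hippocampi were sequenced, and because in such bulk tissue fewer cells of a type and less RNA per cell cannot be told apart. Markers of excitatory neurons were present in both groups, among them Slc17a7 at 736 and 794 FPKM and Camk2a at 593 and 667 FPKM. Of the dentate granule cell list, 6 of 9 markers had a row, with Prox1 at 10.9 and 8.96 FPKM, the only 1 of the 6 that was at least 1.2-fold lower. Their median log2 ratio was -0.06, and their summed level was 238 FPKM with vehicle and 230 FPKM with CORT. For 8 of 10 pyramidal and excitatory neuron markers the median was 0.14, with 2 at least 1.2-fold higher and 0 lower. Regardless of fold, 6 of these 8 were higher in the CORT group and 2 lower, Neurod6 (log2 ratio -0.10) and Man1a1 (-0.16). All 9 interneuron markers with a row, of 10 listed, were higher in the CORT group, 7 of them by at least 1.2-fold, with a median of 0.33 and a summed level of 560 and 692 FPKM. The median of the interneuron list was thus above the 0.10 of the 6 receptor genes in the same form.

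Each list of non-neuronal or neighbouring-tissue markers had a median below 0. The median log2 ratio was -0.09 for 10 astrocyte markers (3 at least 1.2-fold lower), -0.24 for 10 oligodendrocyte markers (3 lower) and -0.23 for 10 microglia markers (4 lower, 1 higher). Among the astrocyte markers, which bear on Grm3, Gfap stood at 970 and 517 FPKM, while the glutamate transporter Slc1a2 stood at 159 and 175 FPKM; these were singled out after their values were seen. For 9 of 10 meningeal and fibroblast markers it was -1.14, with 7 at least 1.2-fold lower and a summed level of 1710 and 826 FPKM. For 11 of 15 thalamic and habenular markers it was -0.90, with 8 lower and 2 higher and a summed level of 79.1 and 55.1 FPKM. Another marker of that list, Tac2, is named Tac3 in the rat and stood at 29.4 and 30.6 FPKM (log2 ratio 0.06); with it the median over 12 genes was -0.82 and the summed level 108 and 85.7 FPKM. For 9 of 10 choroid plexus markers it was -0.02, with a summed level of 6797 and 6779 FPKM. The part of these tissue and cell type differences in the receptor values was not tested.

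**Figure D4:**
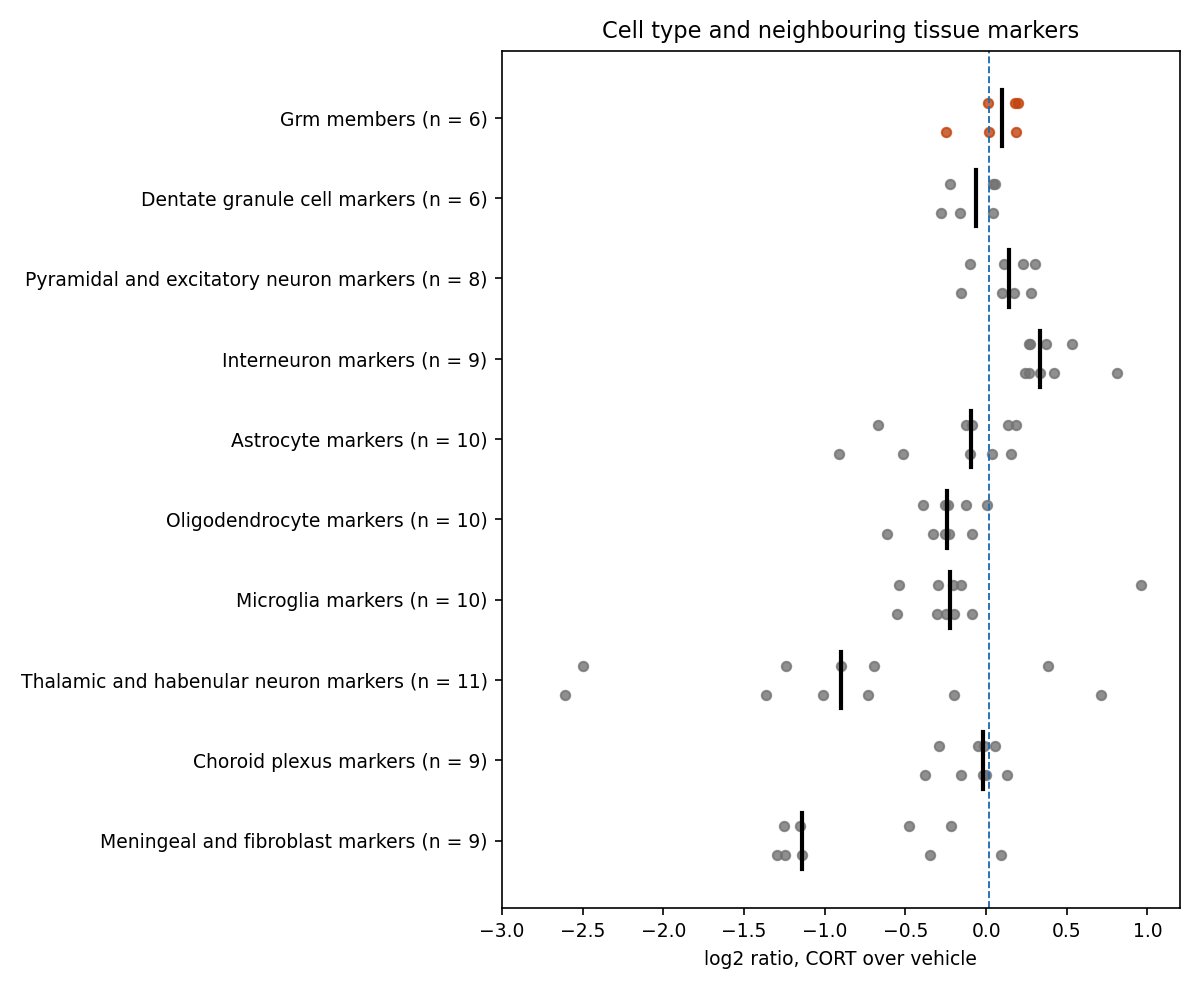
Log2 ratio of CORT over vehicle (x axis) for the 6 receptor genes (red) and for markers of hippocampal cell types and neighbouring tissues (grey), with 1 row per symbol throughout; black bars are medians and the dashed line is the median of all 13272 symbols. The black bar of the interneuron markers, at 0.33, lies to the right of that of the receptor genes, at 0.10, and those of the meningeal (-1.14) and the thalamic and habenular markers (-0.90) lie farthest to the left.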

How the data were processed

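The authors aligned reads of TruSeq stranded libraries to the rn6 genome and estimated transcript FPKM with TopHat2 2.0.10, Cufflinks and Cuffdiff 2.2.0, with geometric normalization between libraries, pooled dispersion, multi-read, sequence bias and effective length corrections, and a minimum alignment count of 10. The deposited FPKM values are 1 per group for each Ensembl transcript. The same table holds the authors' own fold changes, test statistics, p-values and q-values, which were not used. CASAVA 1.8.2 is also listed in the submitters' processing notes.

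Log2 ratios were computed from the deposited FPKM values without a pseudocount, which no value of 0 required, and counted past 1.2-fold. No test was run, because no spread between rats is held in group values. Locus starts were raised by 1, since end minus start matched the RefSeq gene length for 454 symbols of 11739, against 174 if starts counted from 1. All member rows are named, and of each pathway list the highest and the lowest ratio among genes with at least 1 FPKM in a group. List symbols were matched exactly, and in an alternative also through RefSeq synonyms. Members, lists and folds were chosen with earlier results of these data known, and the window of 2-fold around a level after the data were seen. The arithmetic of the ratios and counts was checked on vehicle values changed by a known 1.5-fold, without noise, which says nothing on the spread of real values. Python 3.11.15, numpy 2.4.6, pandas 2.3.3 and matplotlib 3.10.9 were used.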

Additional observations from a re-analysis of the deposited data

How the results depend on the processing

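No paired analysis was possible because the table holds 1 value per group, and leaving out a rat was not possible for the same reason. A log2 value was taken as moved when it shifted by more than 0.1. With a pseudocount of 1 FPKM the log2 ratio was 0.25 for ENSRNOT00000089747.1 of Grm3 and 0.20 for ENSRNOT00000083426.1 of Grm4, 1 receptor row was at least 1.2-fold higher, and the median was -0.62 for the thalamic and habenular and -0.89 for the meningeal markers. With rows summed the log2 ratio was 0.28 for Grm5, 0.056 for Grm3 and 0.030 for both rows of Grm4, so the sign of ENSRNOT00000066115.3 was not kept, and 3 genes took another place in the order of vehicle levels than by their highest rows. At 1.5-fold and at 2-fold 0 receptor rows were higher; of all rows 4.21% and 1.92% were higher and 4.91% and 2.03% lower. Centring on the median made 1 receptor row, of Grm4, at least 1.2-fold lower. It also put Grm2 and the upper Grm3 row just below 0, at log2 ratios of -0.009 and -0.005, so fewer rows were then higher with CORT. The pseudocount of 0.1 FPKM and the filter of 1 FPKM moved none of the 9 and 18 values they were applied to, nor did matching list symbols through RefSeq synonyms, chosen after the data were seen, move any of 14 list medians.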

Other observations

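Genes that were singled out after their values were seen include the postsynaptic partners of mGlu5. Homer1, which encodes the scaffold that tethers mGlu5, stood at 13.9 FPKM in the vehicle and 16.6 FPKM in the CORT group, a log2 ratio of 0.25. Shank1, a scaffold that Homer binds, stood at 45.7 and 54.7 FPKM, a log2 ratio of 0.26. Itpr1, the inositol trisphosphate receptor that releases calcium downstream of mGlu5, stood at 24.4 and 29.9 FPKM, a log2 ratio of 0.30. Homer3 was nearly level, at 45.5 and 44.1 FPKM, a log2 ratio of -0.05. Of the 12 genes of Gq signalling, 9 were higher in the CORT group and 3 lower. The lower ones were Plcb3 (log2 ratio -0.22), Trpc6 (-0.23) and Plcb4 (-0.31). Of the 14 scaffolds and binding partners, 12 were higher and 2 lower, Homer3 and Grip1 (-0.12). Over all 13272 symbols, 7195 were higher and 6076 lower. None of these differences was tested, since only group values were used.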
